A study of Mus musculus with 6 samples.

Results

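The 5 subunits of the transcription factor NF-κB and 5 of the inhibitors that hold it in check were measured in microglia with and without Bhlhe41. The genes were the subunits Nfkb1, Nfkb2, Rel, Rela and Relb and the inhibitors Nfkbia, Nfkbid, Nfkbie, Nfkbiz and Tnfaip3. Every non-control probe whose transcript accession mapped to one of them was taken, which gave 15 of the 56601 probes tested, for 10 of 23462 named genes. Gene expression arrays of 1 colour were hybridised with RNA of microglia, the resident macrophages of the brain, from 3-month-old mice, with 3 samples of Bhlhe41 dTomato-Cre/+ mice (B41HET) and 3 of Bhlhe41 dTomato-Cre/dTomato-Cre mice (B41KO). In this allele a cassette for dTomato and Cre that ends in a polyadenylation signal precedes the start codon of Bhlhe41 and is driven by its promoter, so the B41HET controls also carry 1 copy of it and lack 1 intact copy of Bhlhe41, and both genotypes make Cre. Per the Methods each sample was pooled from several mice, whereas 3 mice per genotype are named in the labels. The cells were sorted as CD45low, CD11b+ and Cx3cr1+. The comparison asks which of these genes changed when the remaining Bhlhe41 copy was lost.

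NF-κB is a family of dimers built from the 5 subunits. RelA, c-Rel and RelB carry a transactivation domain, while p50 and p52 are processed from the precursors encoded by Nfkb1 and Nfkb2. In resting cells IκB proteins keep the dimers in the cytoplasm until the IκB kinase (IKK) marks them for degradation, and in macrophages and microglia the released dimers switch on cytokine and chemokine genes together with the genes of several of their own inhibitors. Bhlhe41 is a basic helix-loop-helix repressor that binds the E-box CACGTG.

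Promoter windows from 250 bases before to 50 bases after an annotated start were read from RefSeq (GRCm38.p6) for 7 of the 10 genes, 12 windows in all, because NF-κB acts on several of these genes and Bhlhe41 binds a known motif. Nfkb1, Relb and Nfkbiz had no entry. Both strands were searched for the κB consensus, a 10-letter motif, for CACGTG and for the wider class CANNTG, which includes CACGTG. Positions count the start base as 1 and the base before it as -1. The κB consensus matched in windows of 6 of the 7 genes, with Rela the exception, while 5.14% of all 27025 genes and 4.51% of all 32851 windows held a match. In Nfkb2 the 3 starts had 3, 2 and 1 matches, and 1 stretch was counted for 2 of these starts. At the first start of Nfkb2 the matches at -39 and -38 overlap, as do those of Rel at -92 and -91. CACGTG occurred once, at -33 of the first start of Tnfaip3, beside 8.09% of all genes, and CANNTG occurred in 5 of the 12 windows, those of Nfkbid and Nfkbie and 1 of Tnfaip3, beside 72.3% of all windows. A match describes the letters and not a bound site. The 250 bases before the first start are shown for Nfkb2, the only gene here called on both of its probes, and for Nfkbia, one of the genes whose genotypes overlapped, with the κB matches in capitals:
Nfkb2, chr19:46304487-46304736, plus strand: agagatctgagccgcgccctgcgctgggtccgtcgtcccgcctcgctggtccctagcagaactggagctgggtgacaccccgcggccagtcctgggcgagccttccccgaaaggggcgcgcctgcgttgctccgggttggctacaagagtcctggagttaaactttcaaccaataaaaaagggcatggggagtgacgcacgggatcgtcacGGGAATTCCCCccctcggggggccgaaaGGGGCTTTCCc
Nfkbia, chr12:55492648-55492897, minus strand: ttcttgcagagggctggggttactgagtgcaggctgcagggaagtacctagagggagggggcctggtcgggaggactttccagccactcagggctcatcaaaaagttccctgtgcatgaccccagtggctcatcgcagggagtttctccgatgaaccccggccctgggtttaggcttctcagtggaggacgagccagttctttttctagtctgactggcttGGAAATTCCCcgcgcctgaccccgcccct
The stretches around the matches of the other genes are shown to compare their letters, with the κB match or, in the last, CACGTG in capitals:
Rel, chr11:23771042-23771071, minus strand: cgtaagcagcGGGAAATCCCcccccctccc
Nfkbid, chr7:30422170-30422199, plus strand: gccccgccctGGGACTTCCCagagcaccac
Nfkbid, chr7:30422215-30422244, plus strand: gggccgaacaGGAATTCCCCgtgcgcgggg
Nfkbie, chr17:45555584-45555613, plus strand: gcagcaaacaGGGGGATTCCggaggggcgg
Tnfaip3, chr10:19015516-19015545, minus strand: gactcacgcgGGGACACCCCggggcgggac
Tnfaip3, chr10:19015403-19015432, minus strand: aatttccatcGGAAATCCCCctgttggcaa
Tnfaip3, chr10:19015428-19015453, minus strand: ccacgcgggtCACGTGactggaattt

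**Figure D1:**
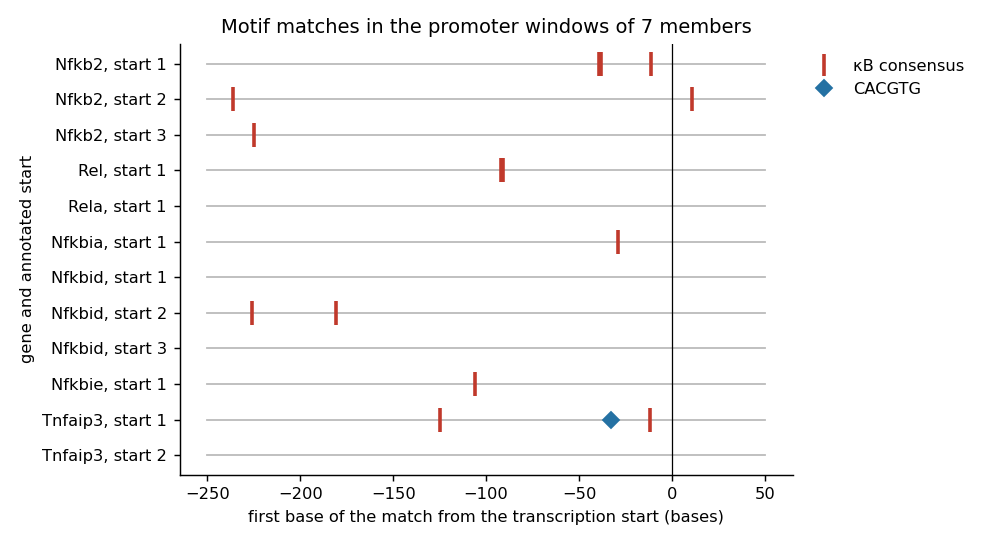
Matches to the κB consensus (red lines) and to CACGTG (blue diamond) in the 12 promoter windows of 7 genes, against the distance of the first base of the match from the start in bases. Matches 1 base apart, at Nfkb2 start 1 and at Rel, are drawn on top of each other, and Rela shows none.

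Each of the 15 probes was read from 1 spot per array and stood well above background in all 6 samples. Values are log2 signals after quantile normalization, fold changes are B41KO minus B41HET on the log2 scale, and adjusted p-values come from limma with Benjamini-Hochberg adjustment over all probes tested. Calls required an adjusted p no higher than 0.05 and a log2 fold change of at least 0.5 in either direction. By this rule 5 of the 15 probes were called, 5 lower and 0 higher, where 5.09% of all probes were called in either direction, 3.38% as lower and 1.72% as higher. The called probes belong to Nfkb2, Rela, Relb and Nfkbiz. Of the 15 fold changes 14 were below 0, with a median of -0.29 beside 0.01 over all probes, and the fold change of Rel turned positive with other normalizations (0.08 with a shift to the 75th percentile). In 9 probes the genotypes did not overlap, beside 29.6% of all probes. Counted by the brightest probe of each gene, 2 of 10 genes were called, both lower, beside 5.49% of all genes (4.05% lower and 1.44% higher). By that count the genotypes did not overlap in 4 of 10 genes, beside 32.1% of all genes, and the median fold change was -0.14. Among the subunits 4 of 8 probes were called and among the inhibitors 1 of 7. When each of the 6 samples was left out in turn, 1 or 2 of the 15 probes were called. Over all probes tested these fits called 796 to 1524 in place of 2883, so the count fell across the array as well.

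**Figure D2:**
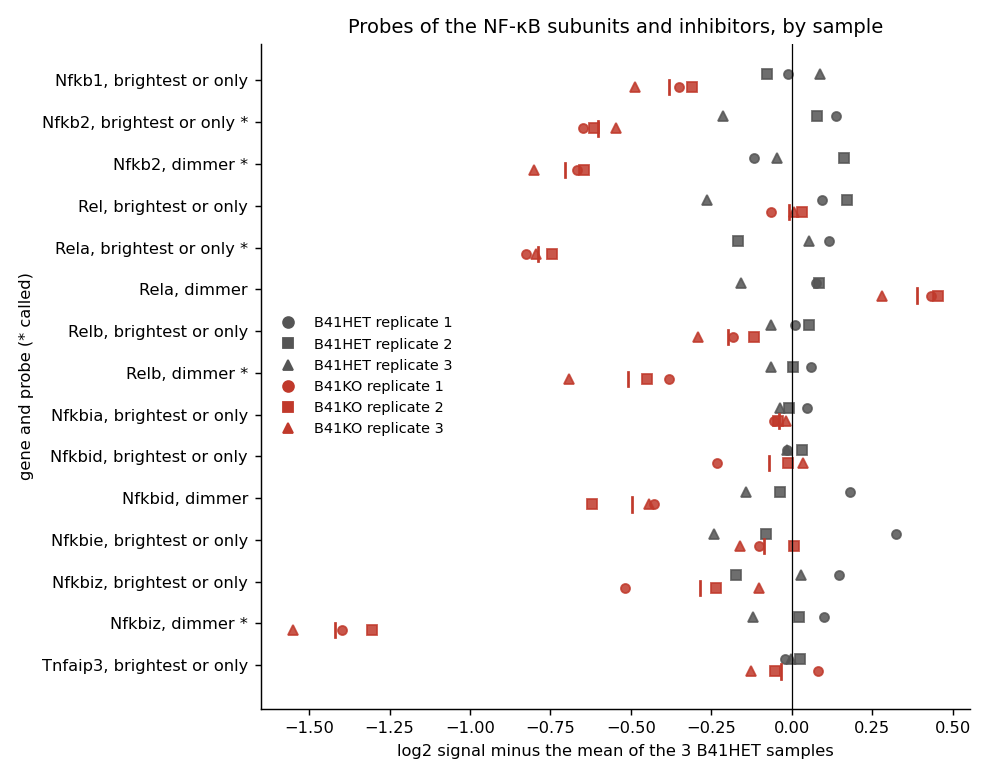
Log2 signal of each probe in each sample, minus the mean of the 3 B41HET samples (grey symbols, B41HET; red symbols, B41KO; red line, B41KO mean; asterisk, called). The red symbols of both Nfkb2 probes, the brighter Rela probe and the dimmer Nfkbiz probe lie left of all grey ones, those of the dimmer Rela probe lie to the right, and those of Nfkbia and Tnfaip3 overlap the grey ones.

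Nfkb2, the precursor of the p52 subunit of the noncanonical pathway, fell by both of its probes. Its brighter probe gave 12.70, 12.64 and 12.35 in B41HET replicates 1 to 3 and 11.91, 11.95 and 12.02 in B41KO replicates 1 to 3. The fold change was -0.60 (SE 0.11, adjusted p = 0.0386 from limma). Its dimmer probe gave 8.76, 9.04 and 8.83 against 8.21, 8.23 and 8.07, a fold change of -0.71 (SE 0.10, adjusted p = 0.0206 from limma). All 3 B41KO samples lay below all 3 B41HET samples on both probes, and the shifts of the 2 probes differed by 0.10 (SE 0.16), within the error. The dimmer probe was not called without any 1 of the samples (adjusted p from 0.0539 to 0.0665), and the brighter one was called only without B41HET replicate 3.

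Relb encodes the usual partner of p52. Its dimmer probe gave 8.85, 8.79 and 8.72 in B41HET and 8.41, 8.34 and 8.10 in B41KO, a fold change of -0.51 (SE 0.10, adjusted p = 0.0484 from limma), just past both thresholds. The brighter probe gave 10.41, 10.45 and 10.33 against 10.21, 10.28 and 10.10, a fold change of -0.20 (SE 0.08, adjusted p = 0.218 from limma). On both probes the genotypes were apart with B41KO lower, but the brighter one was not called, and the dimmer one was no longer called without any 1 of the samples, nor with a shift to the 75th percentile or normexp background correction.

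Rela, which encodes the p65 subunit of the classical dimer, had 2 probes that moved in opposite directions, both designed on the same transcript. The brighter probe gave 11.86, 11.58 and 11.80 in B41HET and 10.92, 11.00 and 10.95 in B41KO. Its fold change was -0.79 (SE 0.10, adjusted p = 0.0134 from limma). The dimmer probe gave 9.63, 9.64 and 9.40 against 9.99, 10.01 and 9.84, a fold change of 0.39 (SE 0.10, adjusted p = 0.0856 from limma). The B41KO samples were all below the B41HET samples on the first probe and all above them on the second, and the second was not called. The mean of the 2 probes had a fold change of -0.20 (adjusted p = 0.183 from limma) and was not called, so the direction of Rela depends on the probe. Leaving out any sample other than B41HET replicate 2 also ended the call of the brighter probe.

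Nfkb1, the precursor of p50, was measured by 1 probe, with 9.92, 9.86 and 10.02 in B41HET and 9.58, 9.63 and 9.45 in B41KO. Its fold change of -0.38 (SE 0.09, adjusted p = 0.0601 from limma) was not called, although the genotypes did not overlap. Rel, which encodes c-Rel, gave 5.65, 5.73 and 5.30 against 5.50, 5.59 and 5.57, with all B41KO values inside the B41HET range and a fold change of -0.01 (SE 0.13, adjusted p = 0.978 from limma).

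Among the inhibitors, Nfkbiz encodes IκBζ, an inducible nuclear IκB protein that also acts as a coactivator. Its dimmer probe gave 10.01, 9.93 and 9.79 in B41HET and 8.51, 8.60 and 8.36 in B41KO, a fold change of -1.42 (SE 0.10, adjusted p = 0.00371 from limma), or 2.67-fold lower. This was the farthest any of the 15 probes moved, and it was the only one called without each of the 6 samples in turn (adjusted p from 0.0183 to 0.0297). The brighter probe gave 11.88, 11.56 and 11.76 against 11.21, 11.49 and 11.63, a fold change of -0.29 (SE 0.14, adjusted p = 0.309 from limma), with B41KO replicate 3 above the lowest B41HET sample. It was -0.52 with the slide row as a block and -0.17 without B41KO replicate 1, and was not called in either. The mean of both probes gave -0.85 (adjusted p = 0.00922 from limma).

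Nfkbia encodes IκBα, the inhibitor that NF-κB itself induces and that closes the feedback loop. It was bright in all samples, with 14.35, 14.30 and 14.27 in B41HET and 14.25, 14.27 and 14.29 in B41KO. The fold change was -0.04 (SE 0.07, adjusted p = 0.778 from limma), and the genotypes overlapped. Tnfaip3 encodes the ubiquitin-editing enzyme A20, which shuts down signalling upstream of IKK, and gave 7.39, 7.43 and 7.41 against 7.49, 7.36 and 7.28, a fold change of -0.03 (SE 0.08, adjusted p = 0.853 from limma). The B41KO samples lay on both sides of the narrow B41HET range.

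Nfkbie, the gene of IκBε, gave 7.36, 6.96 and 6.80 in B41HET and 6.94, 7.05 and 6.88 in B41KO, a fold change of -0.09 (SE 0.16, adjusted p = 0.800 from limma), with all B41KO values inside the B41HET range. Nfkbid encodes IκBNS, another nuclear IκB protein. Its brighter probe gave 11.69, 11.74 and 11.69 against 11.47, 11.69 and 11.74, a fold change of -0.07 (SE 0.09, adjusted p = 0.712 from limma). On that probe only B41KO replicate 1 lay clearly below the B41HET samples. The dimmer probe gave 8.27, 8.05 and 7.94 against 7.66, 7.47 and 7.64, a fold change of -0.50 (SE 0.11, adjusted p = 0.0628 from limma), without overlap and not called.

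Whether the 2 probes of a gene moved differently was tested on their difference within each array, which removes anything that shifts both probes alike. This test was added after the values had been seen. Of 10305 such pairs over all genes, 5.94% differed between genotypes by the same thresholds, and 2 of the 5 pairs here did, those of Rela and Nfkbiz. The brighter Rela probe exceeded the dimmer one by 2.23, 1.94 and 2.40 in B41HET and by 0.93, 0.99 and 1.11 in B41KO, a change of -1.18 (SE 0.15, adjusted p = 0.0214 from limma). For Nfkbiz the difference was 1.87, 1.63 and 1.97 against 2.71, 2.89 and 3.27, a change of 1.13 (SE 0.19, adjusted p = 0.0312 from limma). The genotypes did not overlap in either, but both calls were lost when any 1 sample was left out (adjusted p from 0.0649 to 0.0802 for Rela and from 0.0647 to 0.104 for Nfkbiz). The pairs of Relb, Nfkbid and Nfkb2 were not called. Which part of each transcript a probe reads was not analysed here.

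**Figure D3:**
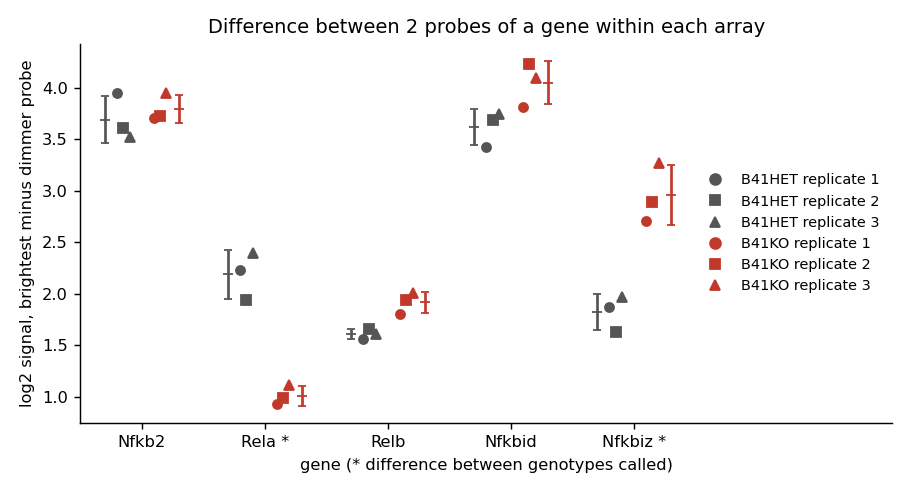
Log2 signal of the brighter minus the dimmer probe of a gene in each array (grey, B41HET; red, B41KO; bars, mean ± SD of 3 samples; asterisk, difference between genotypes called). The red symbols of Rela lie near 1.01 and the grey ones near 2.19, whereas for Nfkbiz red lies above grey.

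**Figure D4:**
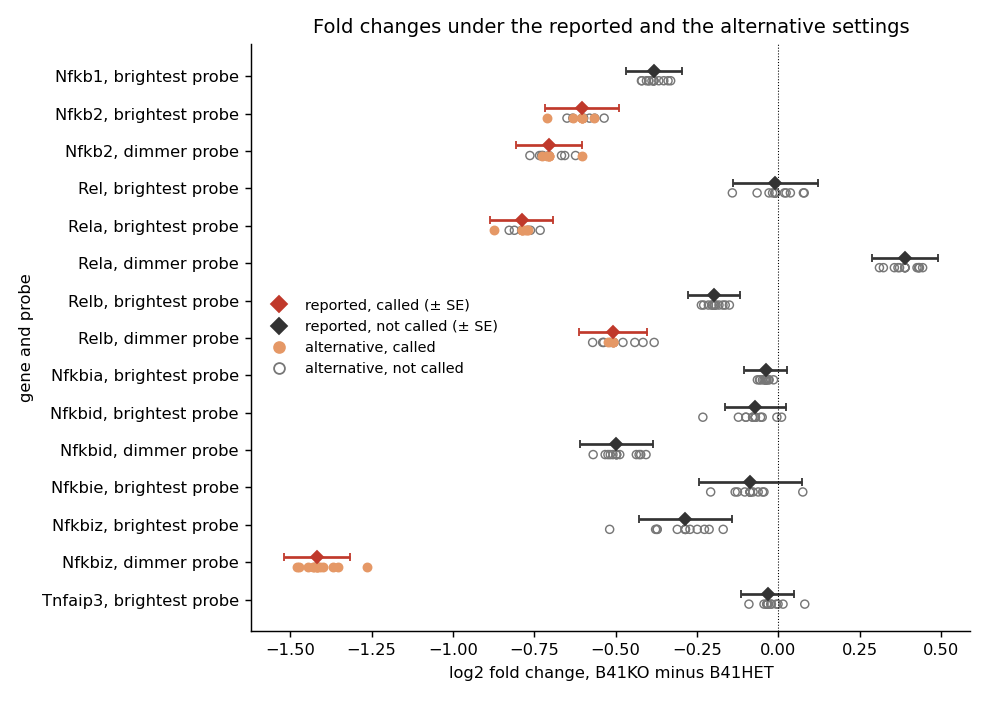
Log2 fold change of each probe as reported (diamonds with SE) and under the 14 alternative settings that apply to single probes (circles, filled where called). The circles of the dimmer Nfkbiz probe are filled except with the replicate block, whose open circle is hidden at -1.42, whereas those of Nfkb2, Rela and Relb are filled only in part.

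The kinases and adaptors that activate NF-κB were read from a list of 33 genes by the brightest probe of each. Of these, 5 fell, 1 rose and 27 were not called, 18.2% beside 5.49% of all genes, with a median fold change of -0.09. The kinase Irak1, which relays Toll-like and interleukin-1 receptor signals, gave 12.22, 12.20 and 12.14 in B41HET and 10.99, 10.98 and 10.88 in B41KO, a fold change of -1.24 (SE 0.07, adjusted p = 0.00197 from limma). Its other two probes had fold changes of -0.13 and 0.01 and were not called. The receptor adaptor Myd88 (-0.51), the adaptors Tab2 (-0.65) and Traf5 (-0.54), and Btrc (-0.69), which recognises phosphorylated IκB for degradation, fell too, and Rbck1 (0.52), a subunit of the linear ubiquitin ligase, rose. With a shift to the 75th percentile 4 genes of the list were called lower and 0 higher, so the call of Rbck1 ended, as it did in 5 of the 6 fits without 1 sample (all but that without B41KO replicate 3). The other probe of Traf5 was called as well (-0.51), whereas the other probes of Tab2 (-0.14 and -0.24) and Btrc (0.26) were not. The core IKK genes were not called, with fold changes of 0.07 for Chuk, 0.16 for Ikbkb and -0.14 for the scaffold Ikbkg, nor was the noncanonical kinase Map3k14 (0.09). Their other probes were not called either, and some had the opposite sign. They gave -0.03 for Chuk, -0.24 for Ikbkb, -0.44, 0.02 and 0.20 for Ikbkg and -0.28 for Map3k14. Among these other probes the genotypes did not overlap for Map3k14 alone, with B41KO lower. The Ikbkg probe at -0.44 was well above background in no sample. On the brighter Ikbkb probe the genotypes did not overlap, with B41KO higher.

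Other inhibitors of the pathway, 20 genes, held 1 called gene, or 5% beside 5.49% of all genes, with a median of -0.19. Pdlim2, a ubiquitin ligase for nuclear RelA, fell by 0.93 on the log2 scale (SE 0.07, adjusted p = 0.0045 from limma), and its other probe, at -0.10, was not called. Nfkbib, the gene of IκBβ, had a fold change of -0.47 by its brighter probe (adjusted p = 0.0321 from limma), under the fold threshold, while its other probe was called at -0.94. Bcl3 (-0.22), the deubiquitinase gene Cyld (-0.21) and Tnip1 (-0.18), a partner of A20, were not called.

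Known NF-κB target genes were taken from a list of 42, of which 40 were measured. Of these 10 fell, 1 rose and 29 were not called, 27.5% beside 5.49% of all genes, with a median of -0.08. That median was -0.20 with the slide row as a block, -0.14 without B41HET replicate 3 and -0.03 without B41KO replicate 3. The cytokine Tnf gave 13.05, 13.13 and 13.18 in B41HET and 12.43, 12.39 and 12.34 in B41KO, a fold change of -0.74 (SE 0.07, adjusted p = 0.00812 from limma), and its other probe was called at -0.65. The protease Mmp9 (-3.00) and the iron-binding Lcn2 (-1.81), both also abundant in neutrophils, fell on both of their probes. The chemokine Cxcl2 was well above background in B41HET but in no B41KO sample. Its measured fold change was -2.99 (adjusted p = 0.0107 from limma), which uses the B41KO signals as they were. A rough bound, which was not tested, put it at 1.81-fold lower. The bound sets the B41HET mean against the lowest signal well above background on each B41KO array.

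Gadd45b (-0.95), a stress-response gene, also fell. The adhesion molecule Icam1 fell by 0.59 on its brighter probe, while its dimmer probe, at 0.29, was not called. Il1b was not called on its brighter probe (-0.37) and was called on its dimmer one (-1.56), and Il6 (0.37) and Ccl2 (0.18) were not called. Bcl2a1d (0.83), a survival gene with near-identical copies that a probe may not tell apart, rose, but it was not called in 5 of the 6 fits without 1 sample (all but that without B41HET replicate 3).

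**Figure D5:**
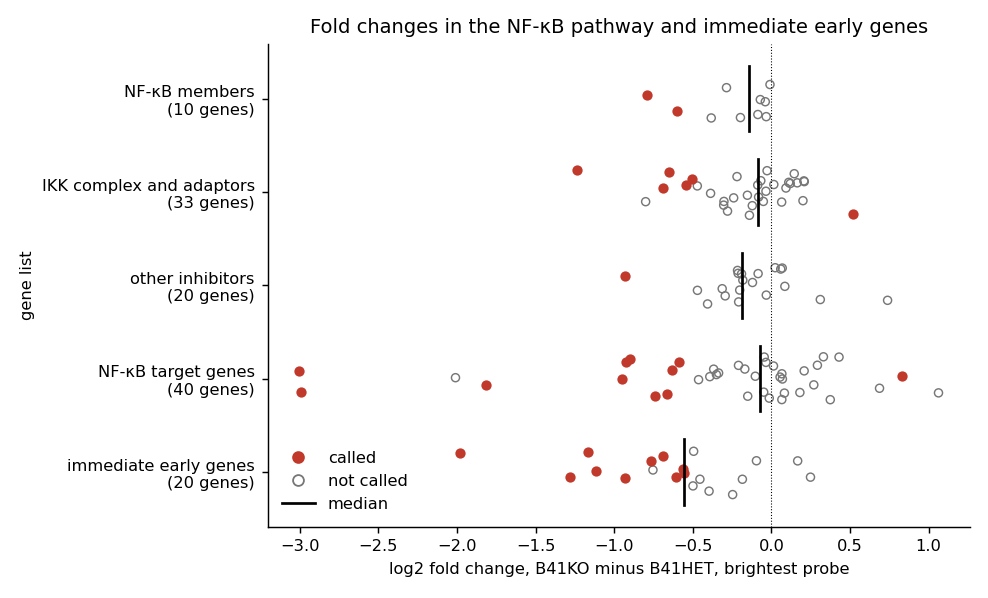
Log2 fold change by the brightest probe for every measured gene of the 5 lists (red, called; open, not called; black line, list median). Cxcl2, one of the 2 points near -3, is drawn at its measured value although it was not well above background in B41KO. The medians of the first 4 lists lie between -0.19 and -0.08, and that of the immediate early genes lies at -0.56.

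Immediate early genes, which are switched on within minutes of stimulation and also by tissue dissociation, were read beside these lists. Of 20 genes 10 fell and 0 rose, 50% beside 5.49% of all genes, with a median of -0.56. Those with the largest decrease were the heat shock gene Hspa1a (-1.98), the stress factor Atf3 (-1.28), Klf2 (-1.16) and the phosphatase Dusp1 (-1.11). Hspa1b, on the same list, had the opposite sign to Hspa1a and was not called (0.25, adjusted p = 0.27 from limma). Their part in the differences of the NF-κB genes was not tested.

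The microglial identity of the samples was read from 12 markers. Their summed level was 17.39 to 17.51 on the log2 scale in B41HET and 17.32 to 17.40 in B41KO, and P2ry12 (-0.29), Tmem119 (-0.05) and Sall1 (0.11) were well above background everywhere and not called. Of the 12 markers 1 fell, Fcrls (-0.76), or 8.33% beside 5.49% of all genes. Markers of monocytes and neutrophils, cells that the gate should largely exclude, fell in 8 of 12 genes, where 4.05% of all genes fell, and their summed level was 14.55 to 14.72 in B41HET and 11.99 to 12.13 in B41KO. S100a8 (-2.22) and S100a9 (-2.52) were among them, and each of the 12 stood well above background in every sample. Of 12 border macrophage markers 5 fell, again beside 4.05% of all genes, with a summed level of 11.34 to 11.44 against 10.81 to 10.94. Mrc1 was not called (adjusted p = 0.0744 from limma). It was dim in B41HET, with a mean of 3.99, and well above background in no B41KO sample. Of 8 endothelial markers 2 fell, Pecam1 (-1.68) and Ly6c1 (-1.79), beside 4.05% of all genes. The other 6 were not called, Cldn5 (-0.13) among them, and 3 of the 8 were well above background in no sample. The summed level was 10.25 to 10.37 against 8.87 to 9.01. It adds linear signals, so the brightest genes weigh most and it is not a level of the cell type. Fcrls, Pecam1 and Ly6c1 were named after their values were seen. The T cell marker Cd3e (0.09) was not called. Monocytes, neutrophils, macrophages and endothelial cells express NF-κB genes as well, and the part of these cells in the differences was not tested. In such bulk samples, fewer cells of a type and less RNA per cell cannot be told apart.

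The groups follow the labels, which the transcript of the targeted gene could not check. The paper states that the allele ends translation of Bhlhe41, which array signal does not measure. The 2 Bhlhe41 probes had fold changes of 0.38 (adjusted p = 0.330 from limma) and 0.33 (adjusted p = 0.204 from limma), so neither was lower in the samples labelled B41KO, although the cassette with its polyadenylation signal lies before the coding sequence. Whether transcripts read through the cassette was not tested. Between 70.1% and 75.5% of the probes were well above background on each array, 0 spots were saturated, and the number of arrays limits the precision. All arrays lay on 1 slide, with the 3 B41HET samples and B41KO replicate 1 in row 1 and the other two B41KO samples in row 2. With the row as a block, which compares B41KO replicate 1 alone with the B41HET samples and takes that lone sample to vary like the others, the dimmer Nfkbiz probe was the only one of the 15 called (-1.40, adjusted p = 0.0493 from limma), and the fold changes of the brighter Nfkb2 and Rela probes were -0.65 and -0.83.

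The genes whose sample pattern was most like that of Nfkbia and of Rela were sought among 17206 genes that stood well above background in every sample, after each genotype's mean had been subtracted. Over the 6 samples, 4933430M04Rik (r = 0.996), Wfdc18 (r = 0.995) and Sfta3-ps (r = 0.993) were most like Nfkbia. For Rela they were Sla (r = 0.997), Tmem127 (r = 0.994) and Gm46160 (r = 0.994). With so few samples, 74 genes had r above 0.95 with Nfkbia and 76 with Rela, so these names describe the ranking alone. Among the other members the highest were Nfkb2 with Nfkbia (r = 0.85) and Nfkbiz with Rela (r = 0.70).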

How the data were processed

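Microglial RNA of 3 B41HET and 3 B41KO samples was hybridised to 1-colour Agilent arrays. The authors deposited scanner output from Feature Extraction 11.5.1.1, whose intensities were background-subtracted within each array but left unnormalized across arrays, and processed log2 values for all arrays, whose scale is not stated and which served as an alternative. Control and outlier-marked spots (95 to 136 per array) were removed, quantile normalization was applied to the log2 intensity, and 56605 probes were compared with limma 3.58.1 (R 4.3.3), with genotype as the only term, as the Methods name for normalization and tool. Tested were the 56601 probes with a value in at least 2 samples of each genotype. No filter on dim probes was used. Probes were named by transcript accession through RefSeq (GRCm38.p6): 33767 probes (59.7%) were named. The array design names another build, so positions are given only for promoter windows from RefSeq. The brightest probe over the 6 arrays stood for a gene. Figures used matplotlib 3.10.9 in Python 3.11.15 with pandas 2.3.3.

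The members and lists were chosen with earlier results of these data known. Named genes were all members, Bhlhe41, the called genes of each list (where over 8 were called, the 4 that rose most and the 4 that fell most), 13 fixed pathway genes, 9 defining markers (1 of them is not reported here), and the 3 genes most like Nfkbia and Rela. Marker lists of dendritic, B, endothelial, oligodendrocyte, T and NK cells, astrocytes and neurons had 2 of 10, 1 of 8, 2 of 8, 1 of 8, 0 of 10, 0 of 6 and 0 of 7 genes called, all lower, beside 5.49% of all genes. The model was tested on simulated data. The labels call the samples biological replicates, and p-values measure the spread between them. Alternatives were a 75th percentile shift, the authors' values, normexp (offset 50) on median spot intensities, outlier spots kept, a filter on dim probes (3 or more arrays well above background), trend and robust variance, the slide row or the replicate number as a block, leaving out each sample, no fold threshold, the mean over probes and the probe with the lowest p. A log2 fold change of 1 or more and the probe pair test were added after seeing the data.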

Additional observations from a re-analysis of the deposited data

How the results depend on the processing

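Of the 15 probes, 0 were called with the replicate block, 1 with the slide row as a block, 1 with a log2 fold change of 1 or more and 1 to 2 without any one sample. Over all probes these settings called 42, 448, 800 and 796 to 1524 in place of 2883, and normexp called 1501. Same-numbered samples deviated with correlations of 0.03, 0.01 and 0.05, and the other pairs of samples with -0.0505 to 0.028. B41HET replicate 1 correlated as well with B41KO replicate 2 (0.028) as with its own number (0.0276). Correlations this small cannot settle whether same-numbered samples were pairs. With the replicate block, slide row, fold of 1 and left-out samples, the IKK list had 0, 1, 1 and 1 to 3 called genes, the targets 1, 2, 3 and 6 to 7, the immediate early genes 0, 2, 4 and 5 to 8, and the other inhibitors 0, 0, 0 and 1. The IKK list had 3 with normexp and 3 with the mean over probes, and the other inhibitors had 2 with no fold threshold, 2 with the mean over probes and 3 with the lowest p. Over all alternatives the median fold change ranged from -0.153 to -0.0031 for the IKK list, from -0.2052 to -0.1066 for the other inhibitors and from -0.2348 to -0.0314 for the targets. Called probe pairs numbered 0 with the replicate block, 0 with the slide row and 0 without any one sample. Uncalled values changed sign for Rel (0.0794 with the 75th percentile shift, 0.0238 with normexp, -0.14 to 0.0769 without one sample), Tnfaip3 (0.0811 with the slide row, -0.0905 to 0.0143 without one sample), Nfkbid (-0.12 to 0.0097 without one sample), Nfkbie (-0.21 to 0.075 without one sample) and the Nfkb2 pair (-0.0292 with normexp). The cause was not tested, other than that left-out samples leave fewer arrays. The 75th percentile shift moved the median of all probes by 0.11 and gave 1305 higher and 1523 lower calls in place of 971 and 1912. With that shift the 5 called probes other than the dimmer one of Relb were called too. The authors' values, the filter on dim probes, outlier spots kept, trend and robust variance and no fold threshold called the same 5 probes.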
